A study of Zea mays with 58 samples.

Results

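Maize roots that had been given nitrogen for 30 min were compared with roots given potassium chloride for the same 30 min. The comparison was chosen by time and medium alone and holds 6 of the 58 libraries of the series. The 3 N libraries come from roots put into medium that held KNO3 and NH4NO3 at 20 mM each, in which 10% of the nitrogen carried the 15N isotope. The 3 noN libraries come from roots put into medium with 20 mM KCl. All seedlings were of the inbred line B73 and 10 days old, had lost their endosperm by hand, and had been without nitrogen for 2 days when they were transferred 2 h into the light period. Each replicate pooled 3 seedlings, and each library counts transcripts by their 3' ends, with a molecular identifier on each captured molecule. The media differ in nitrate, in ammonium, in chloride and in total salt, so the N effect given here is the difference between these media, and its parts cannot be told apart. Both media were also sampled at 8 other times up to 120 min, and noN at time 0.

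Nitrate is a nutrient and a signal in roots. In Arabidopsis, sensing by a membrane transporter and by NIN-like transcription factors switches on, within minutes and without new protein synthesis, genes for nitrate uptake, for its reduction to nitrite and ammonium and for the supply of reducing power. Ammonium enters through its own transporters and is built into glutamine and glutamate, and both ions change further genes as their products accumulate. Samples of the first hour after resupply to starved roots are therefore used to read this primary response. The deposited tables carry maize gene model IDs without names, so none of the genes below is given a name or a role, and no pathway is described by name. The tissue label of every library is root, while the treatment protocol speaks of both shoots and roots being pooled for a replicate. Without names the root label was not checked against tissue markers, and shoot material in the libraries was not tested for.

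The 6 libraries held 2086945 to 2839358 counts each. Their counts did not fall alike on short and long genes. The count-weighted mean log2 exon length was 10.99 in each of the 3 N libraries, against 11.07, 11.07 and 11.11 in the noN libraries. The 50 most counted features took 10.2%, 9.75% and 10.4% of the counts in N, against 7.63%, 7.55% and 7.67% in noN. Of the whole series, the 21 noN libraries of 0 to 45 min lay at 11.013 to 11.117 on this length scale, and the 10 noN libraries of 60 to 120 min at 10.971 to 11.003. The 18 N libraries of 5 to 45 min lay at 10.926 to 10.9995, and the 9 of 60 to 120 min at 10.983 to 10.998. At 30 min this difference in makeup and the difference in medium cannot be told apart, and results are given below with the length trend removed where that moved them. In RNA from whole roots, fewer cells of a type and less RNA per cell cannot be told apart either.

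At 30 min 2300 genes were higher in N than in noN roots, 12.2% of the 18872 genes tested, and 1497 were lower, 7.93%, at an adjusted p of 0.05 in the quasi-likelihood test of edgeR. Together they were 20.1% of the tested genes. More genes were higher than lower at every size of effect. By at least 1 on the log2 scale, 999 genes were higher (5.29%) and 537 were lower (2.85%). By at least 2, 306 were higher and 89 lower. By at least 3 the counts were 94 and 31, and by at least 4 they were 33 and 19. The median log2 fold change of all tested genes was -0.04. Median standard errors (SE) were 0.33 for the 999 genes and 0.38 for the 537. Calls in both directions fell in every fit with 1 of the 6 libraries left out. Fits without replicate 2 of noN, without replicate 1 of N and without replicate 3 of N called 879, 911 and 992 lower genes. They called 1658, 1775 and 1993 higher genes. Without replicate 2 of N, replicate 1 of noN and replicate 3 of noN the lower calls were 1194, 1242 and 1138. The higher calls there were 2001, 1944 and 1951. A fit of the 6 libraries alone called 766 lower and 1685 higher genes. Without replicate 2 of noN, 313 lower and 892 higher genes were called by at least 1 on the log2 scale.

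The 999 genes higher in N made up 12.5%, 13% and 12.2% of all counts in the N libraries, against 5.36%, 5.10% and 5.34% in the noN libraries. The 537 genes lower in N made up 0.401%, 0.500% and 0.447% of the counts in N, against 1.22%, 1.95% and 1.17% in noN. Replicate 2 of noN stood above its group for these genes. All 3 N libraries lay above all 3 noN libraries for 962 of the 999 genes (96.3%), and all 3 lay below for 487 of the 537 (90.7%). Among all tested genes these shares were 17.8% and 15.6%. The same libraries chose both lists, so the shares describe them and test nothing. Of the 999 genes, 2 had no count in any noN library, and of the 537 genes 6 had none in any N library.

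Zm00001d025015 (AGPv4 chromosome 10, 99806303 to 99812704, plus strand, 8 exon blocks with 4835 bases) had the smallest p among genes higher in N. It stood at 242, 330.1 and 212 CPM (counts scaled to library size) in the N libraries, against 12.8, 7.83 and 15.1 CPM in the noN libraries. The groups lay far apart and every replicate shared the difference. The log2 fold change was 4.44 (SE 0.22, edgeR adjusted p = 1.693e-20), or 21.7-fold. At 20 min the effect on this gene was 2.38 (SE 0.21), and the increase to 30 min, 2.06 (SE 0.29), passed its own test (edgeR adjusted p = 0.0001489). The difference to 45 min, -0.33 (SE 0.29), did not (edgeR adjusted p = 1).

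Zm00001d041571 (chromosome 3, 127608422 to 127609744, plus strand, 1 exon block with 1323 bases) had the largest fold change among genes higher in N whose groups do not overlap and whose mean over the 6 libraries is at least 10 CPM. It stood at 27.4, 29.5 and 37.6 CPM in N, against 0.366, 0.412 and 0 CPM in noN. The noN roots thus had almost none of it, with 208 counts in the N libraries and 2 in the noN libraries. Scaled to library size the ratio was 129, with an exact 95% interval of 35.2 to 1071 that covers counting error only. The edgeR test called it (adjusted p = 1.226e-09). It was already up at 5 min, with 27.2 ± 5.00 CPM in N and 1.77 ± 1.28 CPM in noN (SD, n = 3 each). At time 0 noN roots had 3.10 ± 0.89 CPM (SD, n = 3), so the 30 min levels lie on both sides of the starting level. At 60 min the gene had 28.4 ± 11.4 CPM in N and 23.8 ± 2.40 CPM in noN. Its N mean was highest at 15 min, with 44.9 ± 6.35 CPM (SD, n = 3), and stood at 31.5 ± 5.36 CPM at 30 min. The makeup of noN libraries changes between 45 and 60 min.

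Zm00001d032198 (chromosome 1, 216773235 to 216782201, minus strand, 7 exon blocks with 4070 bases) was chosen from genes lower in N by at least 1 on the log2 scale. Among those whose groups do not overlap and whose mean over the 6 libraries is at least 10 CPM, it had the smallest p. It stood at 53.5, 78.6 and 71.5 CPM in N, against 112, 160.7 and 151 CPM in noN. The log2 fold change was -1.06 (SE 0.14, edgeR adjusted p = 2.15e-07). At time 0 noN roots had 101.5 ± 5.75 CPM (SD, n = 3), so the 30 min levels lie on both sides of the starting level. The average effect over 60 to 120 min, 0.19 (SE 0.08), fell short of the threshold (edgeR adjusted p = 0.05978).

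Zm00001d048710 (chromosome 4, 3837797 to 3839930, plus strand, 2 exon blocks with 2037 bases) had the largest fold change among genes lower in N whose groups do not overlap and whose mean over the 6 libraries is at least 10 CPM. It stood at 0.450, 0.786 and 1.04 CPM in N, against 11.3, 192.5 and 3.84 CPM in noN. The groups did not overlap, but replicate 2 of noN held nearly all of the noN counts. The log2 fold change of -6.42 (SE 2.09) passed the test (edgeR adjusted p = 0.024). Without replicate 2 of noN it was -3.23 and did not (edgeR adjusted p = 0.4705). Without replicate 1, 2 or 3 of N it was -6.15, -6.46 and -6.63, about as large as with all libraries, and did not pass either (edgeR adjusted p = 0.08371, 0.07652 and 0.06779).

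**Figure D1:**
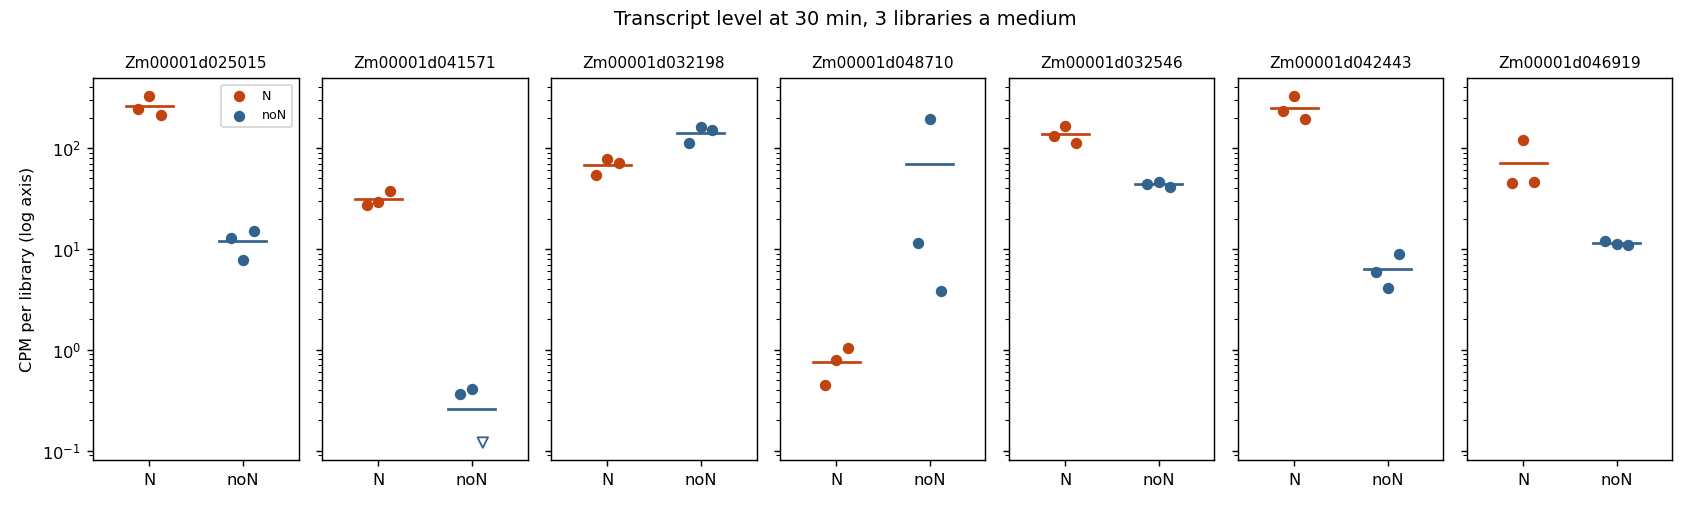
CPM at 30 min on a log axis for the 4 genes chosen by rule and 3 genes chosen after their values were seen, with 3 points per medium, N left of noN, and a line at the mean; an open triangle marks a library with no count. The N and noN points do not overlap in any of the 7 panels, which the rule required of the 4 genes it chose. Zm00001d048710 has 1 noN library at 192.5 CPM and the others at 11.3 and 3.84.

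Many genes higher in N at 30 min were also higher at earlier times and at 45 min. The contrasts of those times share no library with the 30 min contrast. They do share its fit, with the same filter and the same estimate of each gene's spread. The calls are therefore not independent, since a gene with a small fitted spread is called more easily at every time. Of the 999 genes, 209 were called higher at 5 min (20.9%, against 2.63% of all tested genes), then 421 at 10 min (42.1%, against 7.56%) and 619 at 15 min (62%, against 14.7%). At 20 min 743 of them were higher (74.4%, against 16.4%), and at 45 min 775 (77.6%, against 13.4%). The fold change was positive in 972 and negative in 27 of the 999 at 20 min, and positive in 978 and negative in 21 at 45 min. The genes shared with 20 min were 24% of the genes called higher then, and those shared with 45 min were 30.6%. The median log2 fold change of the 999 was 0.61 at 5 min. It was 1.26 at 20 min and 1.36 at 45 min, next to medians between -0.03 and 0.00 for all tested genes. The noN libraries of these times also had counts on longer genes than the N libraries had.

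Genes lower in N at 30 min were also lower at the neighbouring times. Of the 537, 33 were called lower at 5 min (6.15%, against 0.97% of all tested genes), then 84 at 10 min (15.6%, against 4.18%) and 224 at 15 min (41.7%, against 12.5%). At 20 min 342 were lower (63.7%, against 13.8%), and at 45 min 276 (51.4%, against 10.2%). The fold change was negative in 521 of the 537 at 20 min and in 524 at 45 min. The genes shared with 20 min were 13.1% of the genes called lower then, and those shared with 45 min were 14.3%. The median log2 fold change was -0.46 at 5 min. It was -1.11 at 20 min and -0.97 at 45 min. Whether the 2 lists differ in their timing was not tested.

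**Figure D2:**
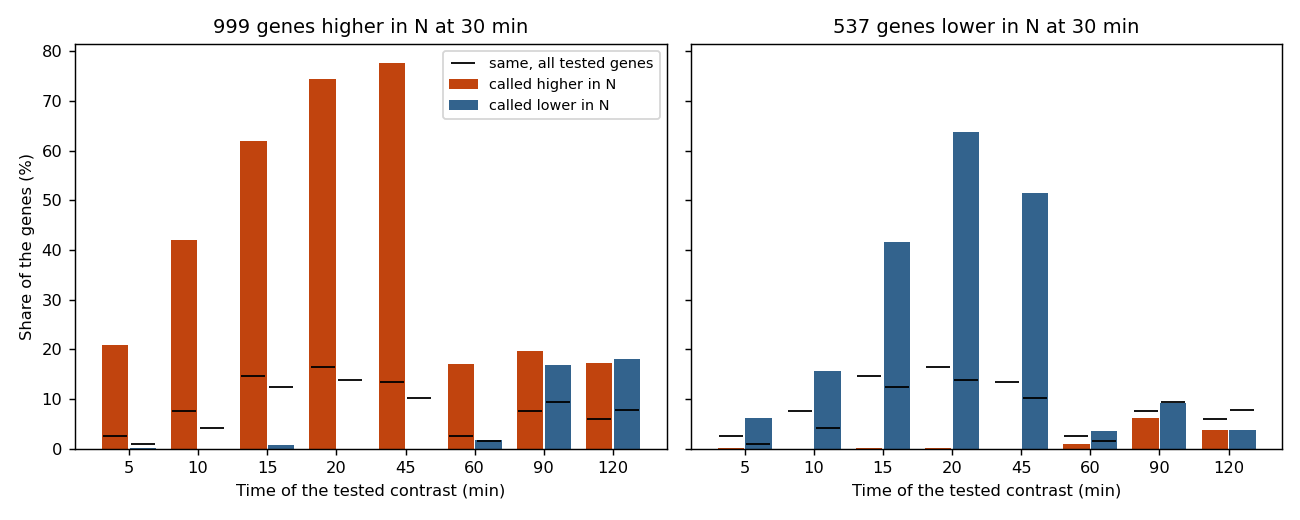
Share of the 999 genes higher in N at 30 min (left) and of the 537 genes lower in N at 30 min (right) that were called higher or lower in N in the contrast of each other time, in percent, with a black line at the same share of all tested genes. For the 999 the higher share climbs to 74.4% at 20 min and 77.6% at 45 min and is 17.1% at 60 min, when 18 genes (1.80%) were lower.

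From 60 min on, fewer of the 999 genes were called higher than at 20 or 45 min. At 60 min 171 of the 999 genes were higher and 18 lower, against 2.5% and 1.59% of all tested genes. At 90 min 197 were higher and 169 lower, against 7.59% and 9.48%. At 120 min 173 were higher and 180 lower, against 6.06% and 7.81%. In the average over 60, 90 and 120 min 280 of the 999 were higher (28%, against 14.9% of all tested genes) and 242 were lower (24.2%, against 16.9%), while 477 passed in neither direction. Of the 537, 61 were higher (11.4%, against 14.9%) and 85 were lower (15.8%, against 16.9%). On the length scale the N and noN libraries of these late times overlap, as given above.

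The late calls were also counted by the size of the 30 min effect, without a test of the trend. Of all tested genes 14.9% were higher late and 16.9% were lower. Of the 693 genes higher by 1 to 2 on the log2 scale, 160 were higher late (23.1%) and 203 were lower (29.3%). Of the 212 genes at 2 to 3, 64 were higher late (30.2%) and 30 lower (14.2%). Of the 61 genes at 3 to 4, 33 were higher late (54.1%) and 8 lower (13.1%). Of the 33 genes at 4 or more, 23 were higher late (69.7%) and 1 lower (3.03%). Of the 448 genes lower by 1 to 2, 58 were higher late and 58 lower (12.9% each), both below the shares of all tested genes. Of the 19 genes lower by 4 or more, 7 were lower late (36.8%) and the other 12 were not called. Most of these 19 genes had over 80% of their noN sum at 30 min in replicate 2 of noN, as described below. At 30 min the genes that were also higher late had a median log2 fold change of 1.84, and those that were lower late had 1.41.

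The difference between the 30 min effect and the effects at the other times was tested for each gene. Against 20 min it passed in 3 genes (0.0159% of those tested), all with a larger effect at 30 min, and against 45 min in 1 gene (0.0053%), with a smaller one. At an unadjusted p of 0.05 there were 1282 and 899 genes. Where no gene differed, a share of about 0.05 of the 18872 tested genes would pass that threshold. Against the average of 60 to 120 min it passed in 5312 genes (28.1%), 2974 with a positive (15.8%) and 2338 with a negative difference (12.4%). Among the 999, 754 had a positive and 12 a negative difference, with a median of 1.59. Among the 537, 372 had a negative difference and the median was -1.39. The counts within the lists follow in part from their choice, since a large effect at 30 min favours a large difference. A difference across 45 to 60 min also spans the makeup change in noN libraries, and the 2 cannot be told apart.

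All 4 genes whose effect differed from 20 or 45 min were higher in N at 30 min, and 3 of them are named here only because their differences had been seen. Zm00001d042443 (chromosome 3, 167612707 to 167616683, minus strand) had 231, 330.1 and 193 CPM in N, against 5.85, 4.12 and 8.97 CPM in noN. The media differed by 5.28 in log2 (SE 0.30), which edgeR called with an adjusted p of 6.8e-18. Its effect exceeded that at 20 min by 2.18 (SE 0.42, edgeR adjusted p = 0.03054). That call ended without replicate 2 of N (1.93, edgeR adjusted p = 0.356), without replicate 1 of noN (2.13, edgeR adjusted p = 0.1677) and without replicate 2 of noN (1.97, edgeR adjusted p = 0.127).

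Zm00001d046919 (chromosome 9, 110691826 to 110696403, plus strand) had 45.4, 120.3 and 45.9 CPM in N, against 12.1, 11.1 and 10.9 CPM in noN. Replicate 2 of N was well above the other N libraries. The log2 fold change was 2.64 (SE 0.30, edgeR adjusted p = 3.205e-09), and at 20 min it was 0.41 (SE 0.31, edgeR adjusted p = 0.3142). The difference of 2.23 (SE 0.43) passed (edgeR adjusted p = 0.03054), and it did not without replicate 2 of N (edgeR adjusted p = 0.7112). Without replicate 1, 2 or 3 of noN the difference was about as large, at 2.29, 2.22 and 2.21, but did not pass (edgeR adjusted p = 0.1154, 0.09818 and 0.1383). At 45 min the gene stood at 119 ± 10.6 CPM in N and 23.8 ± 1.16 CPM in noN (SD, n = 3 each), a level that replicate 2 of N at 30 min had reached.

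Zm00001d032546 (chromosome 1, 230134398 to 230139442, minus strand) had 133, 165 and 112 CPM in N, against 44.3, 46.6 and 40.7 CPM in noN. Its log2 fold change was 1.64 (SE 0.13, edgeR adjusted p = 2.619e-13), and its difference to the effect at 45 min was -1.03 (SE 0.18, edgeR adjusted p = 0.0165). The N level went on to 228 ± 11.8 CPM at 45 min and 317 ± 40.5 CPM at 60 min (SD, n = 3 each), while noN stayed between 33.9 and 49.5 CPM in the group means of the whole series. Without replicate 1 or 3 of N the difference was -1 and -0.90, and without replicate 1 or 2 of noN it was -1.01 and -0.98. It moved little and did not pass in these 4 fits (edgeR adjusted p = 0.1234, 0.1536, 0.1071 and 0.1595). Without a filter on low counts it was -1.02 and did not pass (edgeR adjusted p = 0.2847).

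The levels of both lists were followed in each medium relative to noN at time 0. In N the median of the 999 genes was 0.40 at 5 min on the log2 scale. It was 0.99 at 30 min, its highest, and 0.58 at 120 min. In noN the median was -0.17 at 5 min and -0.46 at 30 min. From 60 min on it was positive, with 0.64 at 60 min and 0.63 at 120 min. At 30 min the N roots stood above the start and the noN roots below it, and after 45 min the noN roots reached the level of the N roots. For the 537 genes the N medians were -0.28 at 5 min, -0.58 at 30 min and -0.12 at 120 min. The noN medians were 0.11 at 5 min and 0.55 at 30 min, with -0.22 at 60 min. The 30 min points chose the genes, and both courses share the 3 libraries of time 0. The medians of all other tested genes stayed between -0.04 and 0.02.

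**Figure D3:**
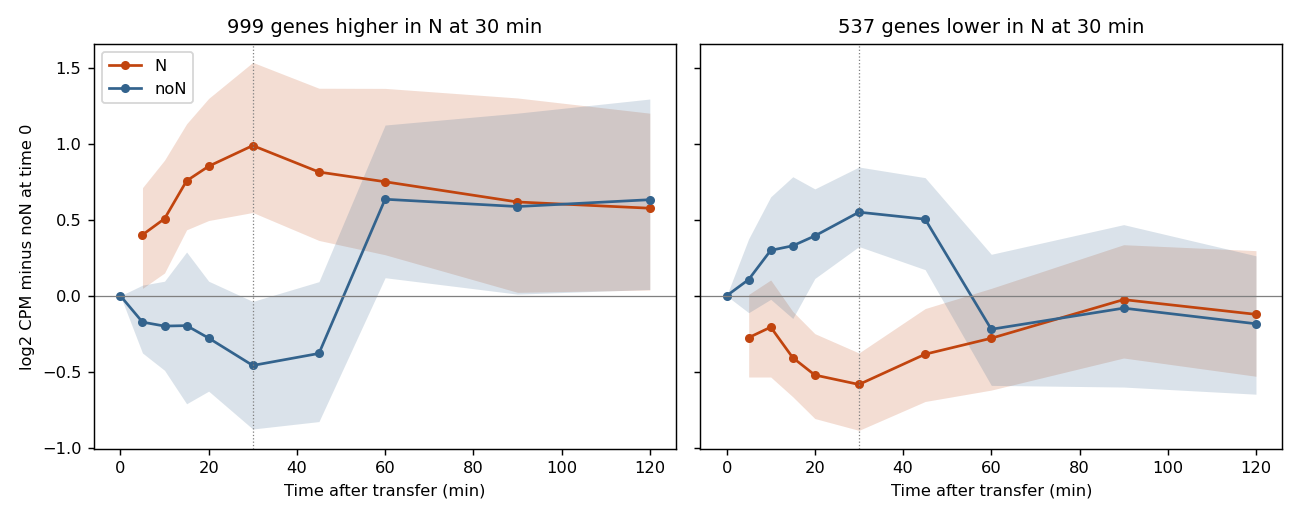
Median log2 CPM minus that of noN at time 0 over the course, in N (orange) and noN (blue), for the genes higher (left) and lower (right) in N at 30 min; bands run between the quartiles of the genes and the dotted line marks 30 min. The media are farthest apart at 30 min, and the noN medians cross to the N side between 45 and 60 min, reaching 0.64 for the 999 genes and -0.22 for the 537.

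Regulators of the authors' deposited network responded often. The network gives a weight to pairs of 196 regulators and 2294 targets, the regulators among them, and it comes from the same study, so it is no independent choice of genes. Of the 196 regulators 94 were higher in N at 30 min (48%) and 14 lower (7.14%), next to 12.2% and 7.93% of all tested genes. By at least 1 on the log2 scale, 59 were higher and 6 lower, and 22 were higher by at least 2. Of the 2098 targets that are not regulators, 805 were higher (38.4%) and 394 lower (18.8%). Of the 16578 tested genes outside the network, 1401 were higher (8.45%) and 1089 lower (6.57%). The median log2 fold change was 0.68 in regulators, 0.32 in the other targets and -0.06 outside. Regulators were also called often at the neighbouring times. Of the 196, 107 were higher and 15 lower at 20 min, next to 16.4% and 13.8% of all tested genes. The counts at 45 min were 85 and 10, next to 13.4% and 10.2%.

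The late calls of these regulators went both ways. Of the 94 that were higher at 30 min, 26 were higher late, 49 were lower and 19 passed in neither direction. Of the 14 that were lower at 30 min, 9 were higher late and the other 5 were not called. Of all 196 regulators 53 were higher late and 114 lower, next to 14.9% and 16.9% of all tested genes. By the authors' summed weight, 5 of the top 20 regulators were higher at 30 min, 2 were lower and 13 were not called. The median summed weight was 369 among higher, 683 among lower and 456 among uncalled regulators. Of the 242 genes higher at 30 min and lower late, 206 are targets, regulators included (85.1%), against 115 of the 280 that were higher at both (41.1%) and 172 of the 477 that were not called late (36.1%). Of the 18872 tested genes 2294 are targets.

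**Figure D4:**
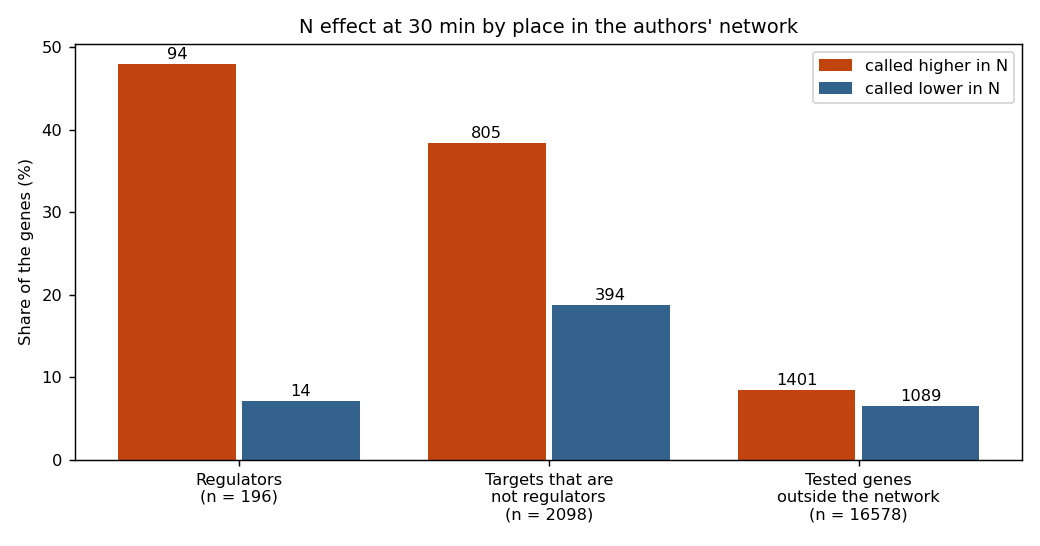
Share of genes called higher (orange) or lower (blue) in N at 30 min, in percent, for the 196 regulators of the authors' deposited network, its 2098 other targets and the 16578 tested genes outside it, with the number of genes on each bar. The higher share is 48% in regulators, 38.4% in other targets and 8.45% outside.

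Of the named genes, all but Zm00001d048710 are targets in the network. The regulator with the most weight on Zm00001d046919 was itself higher in N (log2 difference 2.21, SE 0.44, edgeR adjusted p = 0.0001955), with 19.7 ± 7.98 CPM in N and 4.15 ± 2.15 CPM in noN (SD, n = 3 each). The top regulator of Zm00001d032198 was lower by -0.60 (SE 0.19, edgeR adjusted p = 0.01761). For the other 4 genes the top regulator did not pass the test. The top regulator held 2.81% to 4.62% of the summed weight on its target.

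More short than long genes were higher in N. The tested genes were split by exon length into 4 classes of equal size. In the shortest class 778 were higher and 176 lower, in the second 690 and 259, in the third 524 and 367, and in the longest 308 and 695. The difference in makeup between the media moves in the same direction. With each library's trend on exon length removed, the classes had 558 and 317, 588 and 312, 576 and 313, and 546 and 346. Of the 999 genes 924 were still called higher with the trend removed, and of the 537 genes 502 were still lower. Of the regulators 94 were called higher and 10 lower with the trend removed; whether they are those called before was not counted. The part of the makeup difference in any single gene's effect was not tested.

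**Figure D5:**
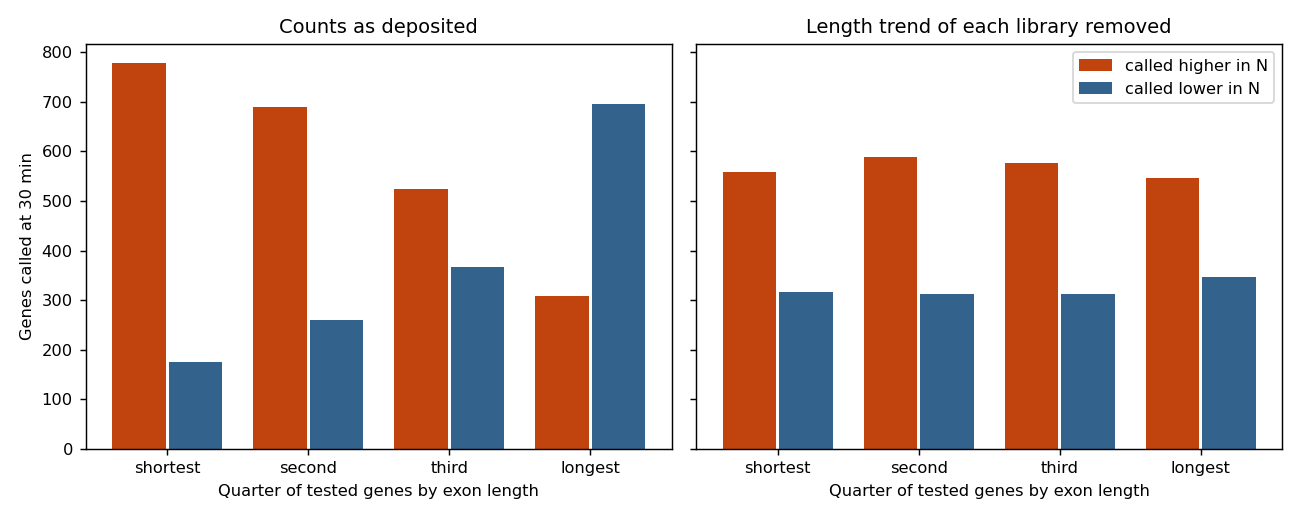
Number of genes called higher (orange) or lower (blue) in N at 30 min in 4 equal classes of tested genes by exon length, with counts as deposited (left) and with each library's trend of log2 CPM on exon length removed (right). The higher calls fall from 778 in the shortest to 308 in the longest class on the left, and lie between 546 and 588 on the right.

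Calls were also counted by expression level, gene structure and origin. The tested genes were also split by mean level into 4 equal classes. In the most expressed class of 4718 genes 1160 were higher (24.6%) and 231 lower (4.90%). In the least expressed class of 4718 there were 255 (5.40%) and 271 (5.74%). With the length trend removed the most expressed class had 1158 and 213. Small effects are called more easily at high counts, which these shares do not allow for. The median log2 fold change was 0.17 in the most and -0.26 in the least expressed class. It was 0.19 and -0.29 with the trend removed. By at least 1 on the log2 scale, 289 of the most expressed were higher (6.13%) and 23 lower (0.487%). In the least expressed these were 251 (5.32%) and 245 (5.19%), against 5.29% and 2.85% of all tested genes. Of the 1724 genes of 1 exon block 248 were higher (14.4%) and 39 lower (2.26%), or 204 and 49 with the trend removed. Of the 4247 genes of 9 or more 277 were higher (6.52%) and 579 lower (13.6%), or 369 and 400 with the trend removed. Over all tested genes the shares were 12.2% and 7.93%. Of 120 tested non-coding RNA genes with ENSRNA identifiers, edgeR called 16 higher (13.3%, close to the 12.2% of all tested genes) and 0 lower, and limma 23 higher and 0 lower, with a median fold change of 0.44 in edgeR. With the trend removed edgeR called 6 higher and 2 lower. Of 10 tested mitochondrial genes 1 was higher and 3 were lower.

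Some genes lower in N had most of their noN counts in 1 library. For 22 of the 537 genes over 80% of the noN sum lay in replicate 2 of noN, and for none of the 999 genes did a single N library hold so much. The 22 genes summed to 41.8, 58.6 and 40.7 CPM in N, against 169, 2356 and 98.3 CPM in noN. Replicate 2 of noN was thus more than an order of magnitude above its partners. Single genes weighed heavily in this sum, and Zm00001d048703 alone had 747 CPM in replicate 2 of noN. The sum of the 22 genes was also high in noN libraries of other times, which the choice did not use. Of the 22 genes, 11 were called lower in N at 20 min and 8 at 45 min. Of all tested genes 13.8% and 10.2% were called lower at these times. Replicate 1 of noN reached 1789 CPM at 20 min and 1498 CPM at 45 min, where the other noN libraries held 82.2 to 151 CPM. At other times whole noN groups were high, with 371 to 966 CPM at 5 min, 149 to 1083 CPM at 10 min, 1021 to 1718 CPM at 15 min and 427 to 1545 CPM at 90 min. At 60 and 120 min noN libraries held 110.1 to 477 CPM and 60.0 to 748 CPM. N groups had 34.1 to 259 CPM over all times, and noN at time 0 had 62.9 to 118 CPM. The 22 genes include Zm00001d048710.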

How the data were processed

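The main table is the authors' deposited counts, made with featureCounts 2.0.1 from sense-strand reads and release 37 of the AGPv4 annotation, per the file headers. UMI-tools 1.1.1, fastp 0.21.0 and STAR 2.7.6a are named in the submitters' processing notes. The authors' deposited quantile normalized table gives 18616 genes in 57 libraries as a rounded score, and the authors' deposited network weight is a score for each of 449624 pairs. The method behind the weights is not stated in the labels or headers.

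Genes were kept by filterByExpr (minimum count 10, minimum total 15), leaving 18872 of 46335 features, with 99.7% of the counts. All main tests came from a quasi-likelihood fit in edgeR 4.0.16 (R 4.3.3, TMM scaling) of 19 group means with 39 residual degrees of freedom, with Benjamini-Hochberg adjustment over all genes. CPM are TMM scaled. For courses, CPM were taken to log2 with a prior count of 3. Reads of near-identical gene copies may be split or missing, and no genome was used to find such genes.

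None of the 44146 gene model IDs matched the reference table of names (153 other features did, none of them tested), so the 10 gene lists have 0 members. The 4 genes given by rule, among those called by at least 1 on the log2 scale whose groups do not overlap and whose mean is at least 10 CPM, have in each direction the smallest p and the largest fold change. Members, lists and rules were chosen with earlier results of these data known. Alternatives were DESeq2 1.42.0, limma 3.58.1 on log2(value + 1) of the quantile normalized table, other scalings, filters and sets of libraries, a replicate block, and each 30 min library left out. The labels call the replicates biological; whether they came from separate cultures is not stated, so p-values measure only the spread between these samples, which may be technical.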

Additional observations from a re-analysis of the deposited data

Results flagged for a closer look

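The N effect at 30 min differed by its own edgeR test from that at 20 min in 3 genes, from that at 45 min in 1 gene and from the average of 60 to 120 min in 5312 genes. Against 20 min the differences were 2.06 for Zm00001d025015, 2.18 for Zm00001d042443 and 2.23 for Zm00001d046919 on the log2 scale (edgeR adjusted p = 0.0001489, 0.03054 and 0.03054). Against 45 min the difference was -1.03 for Zm00001d032546 (edgeR adjusted p = 0.0165). Against 60 to 120 min it was 6.36 for Zm00001d041571 (edgeR adjusted p = 6.207e-08), 1.90 for Zm00001d042443 (edgeR adjusted p = 2.577e-05), -0.93 for Zm00001d032546 (edgeR adjusted p = 6.314e-06) and -1.25 for Zm00001d032198 (edgeR adjusted p = 1.157e-07). The noN libraries change in makeup between 45 and 60 min, which for the last 4 values cannot be told apart from a change of the N effect.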

How the results depend on the processing

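The 30 min contrast called 3811 genes with DESeq2 size factors, 3750 by the DESeq2 Wald test, 3728 by limma (1952 higher, 1776 lower), 3175 without a filter, 3556 with the length trend removed and 3684 from the libraries of 0 to 45 min. The 6 libraries alone gave 2451, in a fit with fewer samples. None of the 999 or 537 genes was called in the other direction under any of the 15 alternatives. All of these reuse libraries of 30 min, so a reversal was unlikely from the start. With 1 of the 6 libraries left out, 841 to 900 of the 999 were still called higher. Of the 537, 305 to 461 were still called lower. The fit of the 6 libraries alone kept 837 and 340. Leaving out 1 of the 6 libraries gave 2537 to 3195 calls, 1205 to 1567 of at least 1 on the log2 scale, 1 to 4 genes against 20 min, 0 to 1 against 45 min and 4179 to 4796 against 60 to 120 min. Against 20 min 1 gene was left without replicate 2 of N and without replicate 1 or 2 of noN. Against 45 min 0 genes passed without a filter, with a replicate block, and without replicate 1 or 3 of N or replicate 1 or 2 of noN. The cause was not tested. With the length trend removed, 6 ENSRNA genes were higher and 2 lower, 317 genes of the shortest class were lower, and 546 of the longest class were higher and 346 lower, which follows from the trend taken out. Zm00001d048710 was not called by limma (log2 fold change -4.09, adjusted p = 0.07666). Deviations of same-numbered libraries correlated at 0.16, -0.08 and 0.08, and only replicate 1 of N correlated best with its own number. With 3 libraries a side these values cannot tell whether replicate numbers pair the samples. With the replicate block 3980 genes were called over all libraries and 2671 over the 6, against 3797 and 2451 without it. With the block over all libraries the difference from 20 min of Zm00001d042443 (2.17, edgeR adjusted p = 0.06166) and that from 45 min of Zm00001d032546 (-1.06, edgeR adjusted p = 0.09044) did not pass. Totals of 2086945 to 2839358 counts and 3 libraries a side limit what can be seen of rare transcripts, and genes with few counts in 1 medium have fold changes of unknown size.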

Other observations

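Some genes higher in N at 30 min lay beside one another along the chromosomes. Gene models on chromosomes 1 to 10 were counted, and those on other sequences were left out. Among 977 such gene models that were higher with a log2 fold change of 1 or more, 101 (10.3%) had another of them as a neighbouring gene model. Among the 18617 tested gene models on these chromosomes, of 18742 tested in all, 959 (5.15%) had a neighbour in that list. The 101 genes form 53 adjacent pairs, 32 of them on the same strand, and the longest run has 4 genes. Of 530 gene models on these chromosomes lower in N by as much, 18 (3.40%) adjoin another, against 2.54% of tested gene models with a neighbour in that list. No test was made, and neighbours can be copies that share reads.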
